A study of Chlamydomonas reinhardtii with 21 samples.

Results

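UVM11-C9 is a line of the green alga Chlamydomonas reinhardtii in which the expression strain UVM11 was given back a wild-type copy of SRTA (Cre10.g462200), and its transcripts were compared here with those of UVM11 itself. The members were chosen by strain: 3 cultures of UVM11-C9 and 3 cultures of UVM11 (replicates 5 to 7), all of RNAseq batch 2, or 6 of the 21 libraries of the study. All 15425 genes with a mean above 0.1 FPKM over the 21 libraries, of 17741 deposited, were tested. FPKM values are counts of sequenced fragments scaled to the length of the gene and to the size of the library. Elow47 is a cell wall-deficient strain that carries the transgene CRY1-1 and the SRTA wild-type allele, and UVM11 was isolated from it after UV mutagenesis. UVM11 therefore carries the srta-1 allele, a point mutation that exchanges a proline for a leucine in the catalytic domain, together with other mutations of the same treatment. UVM11-C9 keeps srta-1 and all of these background mutations and carries, in addition, the plasmid pJR88 with a FLAG-tagged SRTA cDNA between the native SRTA promoter and terminator and the hygromycin resistance gene APH7'' under the TUB2 promoter. It is 1 transformed clone, kept on hygromycin for years before the RNA was taken. The strain is not matched by a UVM11 clone with an empty plasmid, so that the returned gene, the site of plasmid integration, the resistance marker and changes picked up by the clone cannot be told apart. A second clone made in the same way, UVM11-C1 (3 cultures), served to ask whether a level was different between the clones. All strains of the batch were grown in liquid TAP, an acetate medium, in continuous light and were collected at the same range of cell densities.

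SRTA belongs to the sirtuins, enzymes that use NAD+ to remove acetyl groups from histones and other proteins. Loss of acetyl groups usually closes chromatin, and in the green alga this enzyme is known for keeping newly introduced transgenes silent. The comparison asks which of the native genes of UVM11 change in level when a working copy of the deacetylase is present. A rise or fall in FPKM is a change in transcript level and does not by itself tell whether the chromatin of the gene is a target of the enzyme.

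The 6 libraries were close to each other. FPKM values summed to between 548358 and 593150 in UVM11-C9 and between 554555 and 590514 in UVM11, and replicate cultures correlated across genes at 0.994 or more in UVM11 and at 0.996 or more in UVM11-C9 (Pearson r of log2(FPKM + 1), genes above a mean of 1 FPKM). The depth in reads is unknown from FPKM values, but single-fragment steps at low genes placed the libraries between 0.846 and 1.07 times the mean depth of the 9 libraries of the batch. The spread between cultures is thus the only error given below, and whether these were independent inocula is not stated in the labels. In the RefSeq annotation of the same assembly (version 5.5), positions were found for 17738 genes.

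In UVM11-C9, 553 genes, 3.59% of those tested, were differentially expressed genes (DEGs) against UVM11, which required an absolute log2 fold change above 1 and an adjusted p below 0.01 (limma on log2(FPKM + 0.1), Benjamini-Hochberg adjustment over all tested genes). Of these, 216 were higher in UVM11-C9 (1.4% of tested genes) and 337 were lower (2.18%). Smaller differences were common: 5227 genes (33.9%) had an adjusted p below 0.01 whatever the fold, while the median log2 fold change over all genes was -0.01. Most DEGs changed little beyond the threshold. The absolute log2 fold change was under 1.5 in 131 of the higher and 193 of the lower DEGs, and it was above 3 in 9 and 23, respectively. The cultures of the strains did not overlap in 214 of the higher and 335 of the lower DEGs, while such a separation was found in 28.2% and 27.7% of all tested genes (55.9% in either direction). Higher DEGs were mainly genes of low level, with a median of 0.420 FPKM in UVM11 and 1.31 FPKM in UVM11-C9, and 88 of them stayed below 1 FPKM on average in both strains. Lower DEGs had medians of 2.68 FPKM in UVM11 and 0.858 FPKM in UVM11-C9, and 80 of them stayed below 1 FPKM. For all tested genes the medians were 5.53 and 5.48 FPKM. In the other strains the lower DEGs had medians of 1.75 FPKM (UVM11-C1), 1.45 FPKM (UVM11 of batch 1) and 1.19 FPKM (Elow47). The counts leaned on genes of low level, since there were 61 higher and 131 lower DEGs with a pseudocount of 1, of which 61 and 128 were among those above.

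**Figure D1:**
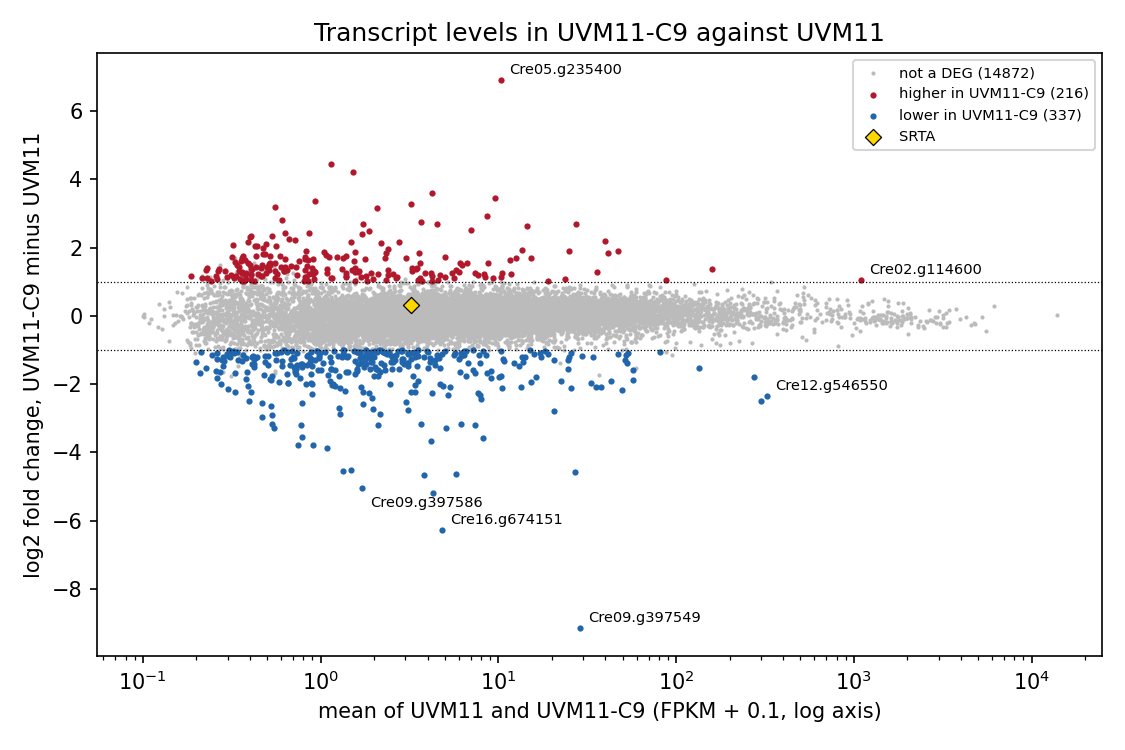
Log2 fold change of each of 15425 genes (UVM11-C9 minus UVM11, on log2(FPKM + 0.1)) against its mean level in both strains, with FPKM + 0.1 on a log axis. The 216 higher DEGs are red and the 337 lower DEGs are blue, dotted lines mark the threshold of 1, and SRTA (diamond) lies at 0.30 among the genes that were no DEG. The position of a gene listed at 0 in one strain depends on the pseudocount.

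SRTA had slightly higher values in UVM11-C9 than in UVM11 of the same batch and was no DEG. The gene (chromosome 10, 5935593 to 5941064) had 2.92, 2.65 and 2.83 FPKM in the cultures of UVM11 and 3.47, 3.66 and 3.32 FPKM in those of UVM11-C9. Every UVM11-C9 culture was above every UVM11 culture, as were 28.2% of all tested genes. The log2 fold change was 0.30 (SE 0.11, adjusted p = 0.0304). With 3 cultures against 3 an exact permutation test (two-sided) cannot fall below p = 0.1, and this was the value obtained. The level stands for the sum of srta-1 and of the introduced cDNA, as FPKM values do not separate them. In batch 1 the gene had 3.51 ± 0.232 FPKM in UVM11 and 3.45 ± 0.572 FPKM in Elow47 (SD, n = 4). The mean of UVM11-C9, 3.48 FPKM, was thus no higher than that of UVM11 in batch 1. UVM11-C1 had 5.10, 5.63 and 4.84 FPKM, and UVM11-C9 minus UVM11-C1 was -0.56 (SE 0.11, adjusted p = 0.000363) on the log2 scale. The paper reports strong expression of the introduced allele in both complemented strains, read from allele ratios in cDNA and from the RNAseq data. It also reports that a fluorescent reporter transgene was silent or very weak in most newly transformed colonies of these strains. The FPKM values used here give no such ratio.

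Of the 17 histone deacetylase genes, 0 were DEGs in UVM11-C9, with limma or with its treat method, although 9 had an unadjusted p below 0.05 in limma, as did 53.9% of all tested genes. Of the 3 sirtuin genes, SRTC (Cre05.g234663) had 5.53, 6.07 and 5.82 FPKM in UVM11 and 6.45, 6.12 and 6.02 FPKM in UVM11-C9. SRTB (Cre12.g524650) had 0.685, 0.710 and 0.833 FPKM and 0.399, 0.933 and 0.486 FPKM. The cultures of both strains overlapped in SRTB and SRTC. The other 14 genes resemble the RPD3/HDA1 family, zinc-dependent deacetylases in other eukaryotes. Among them, HDA7 (Cre09.g387393), the most abundant one, went from 31.1, 31.6 and 30.4 FPKM in UVM11 to 43.1, 41.5 and 42.0 FPKM in UVM11-C9, a log2 fold change of 0.44 (SE 0.05, adjusted p = 4.4e-07). HDA2 (Cre03.g160000) and HDA3 (Cre03.g162050) were higher by 0.45 and 0.47 on the log2 scale (SE 0.06 and 0.10, adjusted p = 8.72e-06 and 0.000642), and HDA12 (Cre11.g477800) by 0.35 (SE 0.07, adjusted p = 0.000367). HDA13 (Cre14.g632300) had the largest shift of the family, from 1.33, 1.09 and 1.03 FPKM to 0.733, 0.418 and 0.664 FPKM, with a log2 fold change of -0.84 (SE 0.21, adjusted p = 0.00275). HDA8 (Cre11.g467706) changed by -0.52 (SE 0.12, adjusted p = 0.00128). These 6 genes, 4 higher and 2 lower, were the only ones of the 17 with an adjusted p below 0.01 in limma, a level that 33.9% of all tested genes reached. The median log2 fold change of the 17 genes was 0.08.

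**Figure D2:**
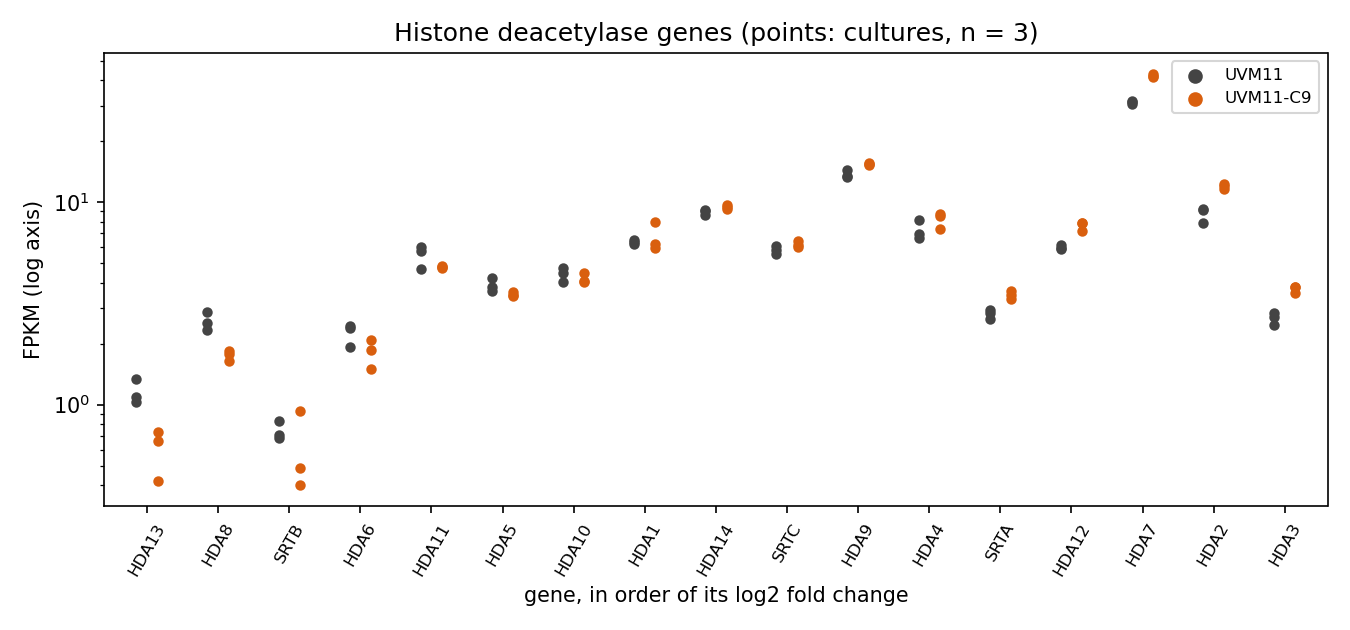
FPKM (log axis) of the 17 histone deacetylase genes in each culture of UVM11 (grey) and UVM11-C9 (orange), in order of their log2 fold change from HDA13 on the left to HDA3 on the right. No gene passes the DEG threshold. The cultures of SRTA do not overlap between the strains, and neither do those of HDA7 and several others. Such a separation was found in 55.9% of all tested genes.

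The largest rise was that of Cre05.g235400 (chromosome 5, 2440494 to 2450801), a gene without annotation in the sources used here. It had 0.0849, 0.0518 and 0.0807 FPKM in UVM11 and 20.8, 19.9 and 20.4 FPKM in UVM11-C9, a log2 fold change of 6.90 (SE 0.15, adjusted p = 4.99e-18). UVM11-C1 was higher still, with 38.3, 39.2 and 46.8 FPKM, and UVM11-C9 minus UVM11-C1 was -1.01 (SE 0.15, adjusted p = 2.24e-05) on the log2 scale. Apart from both clones the gene was hardly transcribed, with at most 0.211 FPKM in any culture of batch 1. Cre21.g752697, on a scaffold that is not placed on a chromosome, could not be seen in UVM11 or UVM11-C1 (listed at 0 in each culture) and had 2.12, 2.204 and 1.96 FPKM in UVM11-C9 (adjusted p = 1.44e-12 against UVM11).

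In most of the other largest rises the second clone was no DEG above UVM11. Cre06.g260900 (chromosome 6, 1640134 to 1641349) went from 0.527, 0.554 and 0.534 FPKM to 8.49, 7.94 and 6.67 FPKM, a log2 fold change of 3.60 (SE 0.34, adjusted p = 6.41e-08), and had 0.203, 0.623 and 0.974 FPKM in UVM11-C1. Cre02.g143367 (chromosome 2, 9111819 to 9114475) went from 0.574, 0.606 and 0.364 FPKM to 5.66, 5.29 and 6.36 FPKM, a log2 fold change of 3.28 (SE 0.32, adjusted p = 1.14e-07). Cre10.g419300 (chromosome 10, 227414 to 229000) went from 0.250, 0.282 and 0.444 FPKM to 4.09, 3.67 and 3.19 FPKM, a log2 fold change of 3.16 (SE 0.43, adjusted p = 7.01e-06). In all of these genes the cultures of UVM11 and UVM11-C9 did not overlap, which the rule that chose them required. Cre02.g141986 and Cre14.g615776 reached lower levels, with 0.905 ± 0.0999 FPKM and 0.942 ± 0.0992 FPKM in UVM11-C9 (SD, n = 3) against 0.00967 ± 0.00530 FPKM and 0.0736 ± 0.128 FPKM in UVM11, and were no DEGs with a pseudocount of 1. UVM11-C9 was above UVM11-C1 in a direct test in Cre06.g260900, Cre02.g143367, Cre10.g419300, Cre02.g141986 and Cre14.g615776, by 3.65, 2.88, 4.28, 3.27 and 2.77 on the log2 scale, each a DEG. This test uses the same UVM11-C9 cultures that put the genes among the largest rises.

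In 4 genes of the largest rises UVM11-C1 was also a DEG above UVM11, beside Cre05.g235400. Cre19.g751047, on an unplaced scaffold, had 6.85, 7.04 and 7.73 FPKM in UVM11, 46.2, 45.5 and 49.5 FPKM in UVM11-C9 and 48.0, 35.3 and 33.2 FPKM in UVM11-C1, and the clones did not differ as a DEG (0.30 (SE 0.13, adjusted p = 0.0743) on the log2 scale). It also had 23.8 ± 3.99 FPKM in Elow47 and 16.4 ± 1.86 FPKM in UVM11 of batch 1 (SD, n = 4). Cre14.g615350 (chromosome 14, 1125856 to 1128338) went from 1.32, 0.436 and 0.924 FPKM to 8.21, 5.41 and 5.18 FPKM in UVM11-C9, a log2 fold change of 2.76 (SE 0.27, adjusted p = 1.11e-07), with 2.73, 1.82 and 2.66 FPKM in UVM11-C1. Cre05.g235950 (chromosome 5, 2529554 to 2533460) went from 0.409, 0.409 and 0.269 FPKM to 2.86, 2.30 and 3.51 FPKM. Cre09.g399250 (chromosome 9, 1279822 to 1282435) was the most variable of these genes, with 0, 0.0829 and 0.0933 FPKM in UVM11 and 2.31, 1.71 and 0.769 FPKM in UVM11-C9. Both complemented strains are compared with the same UVM11 cultures, so a chance low value there raises both.

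The largest fall was that of Cre09.g397549 (chromosome 9, 4835161 to 4842266), for which each of the 3 UVM11-C9 cultures was listed at 0. This transcript stood at 53.3, 58.5 and 59.3 FPKM in UVM11. UVM11-C1 had 60.4, 58.0 and 56.2 FPKM. In the 12 cultures of batch 1 it was at 69.8 FPKM or more, so UVM11-C9 was the only strain of the study at 0. The next gene on the chromosome, Cre09.g397586 (chromosome 9, 4843161 to 4859141), was at 0 in the same cultures. Its levels were 3.19, 3.37 and 3.10 FPKM in UVM11, while UVM11-C1 held 3.37, 3.19 and 3.38 FPKM. No fold change is given for genes at 0. Both genes were DEGs against UVM11 (adjusted p = 9.47e-30 and 5.48e-22) and against UVM11-C1, under every alternative tried for the comparison with UVM11.

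Several neighbours on one side of this pair were lower in UVM11-C9 as well. On the side of lower coordinates, Cre09.g397512, next to Cre09.g397549, had 5.21, 5.01 and 5.51 FPKM in UVM11 and 1.08, 1.14 and 0.883 FPKM in UVM11-C9, a log2 fold change of -2.24 (SE 0.09, adjusted p = 2.3e-13). Cre09.g397475 changed by -1.31 (SE 0.22, adjusted p = 6.51e-05). It had 0.695 ± 0.108 FPKM in UVM11, 0.222 ± 0.0491 FPKM in UVM11-C9 and 0.393 ± 0.0471 FPKM in UVM11-C1 (SD, n = 3). The clones did not differ as a DEG in this gene (-0.62 on the log2 scale). Its level in UVM11 of batch 1, 0.0879 ± 0.0488 FPKM (SD, n = 4), was below that of UVM11-C9. The 4 genes from Cre09.g397475 to Cre09.g397586 span 38721 bp (4820421 to 4859141) and made up the longest run of neighbouring DEGs in UVM11-C9. Further out, Cre09.g397438 was at 1.36 ± 0.0590 FPKM in UVM11 and 1.13 ± 0.112 FPKM in UVM11-C9 (SD, n = 3) and was no DEG. Cre09.g397401 and Cre09.g397364 beyond it were DEGs again, with log2 fold changes of -1.82 and -2.64 (SE 0.31 and 0.25), from 0.305 ± 0.0616 FPKM and 0.809 ± 0.167 FPKM in UVM11 (SD, n = 3). Beyond them, Cre09.g397327 and Cre09.g397290 were no DEGs, and the outermost gene measured, Cre09.g397253, changed by -1.02 (SE 0.22, adjusted p = 0.000969), with 0.307 ± 0.0307 FPKM in UVM11, 0.101 ± 0.0182 FPKM in UVM11-C9 and 0.124 ± 0.0174 FPKM in UVM11-C1. No DEG was found on the side of higher coordinates. Cre09.g397623, next to Cre09.g397586, had 196, 287 and 265 FPKM in UVM11 and 162, 167 and 199.8 FPKM in UVM11-C9, and Cre09.g397697 had 814, 843 and 852 FPKM and 817, 805 and 813 FPKM. In all, 7 genes were measured on that side. A lost stretch of DNA, an insertion there and a loss of transcription alone cannot be told apart from FPKM values.

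**Figure D3:**
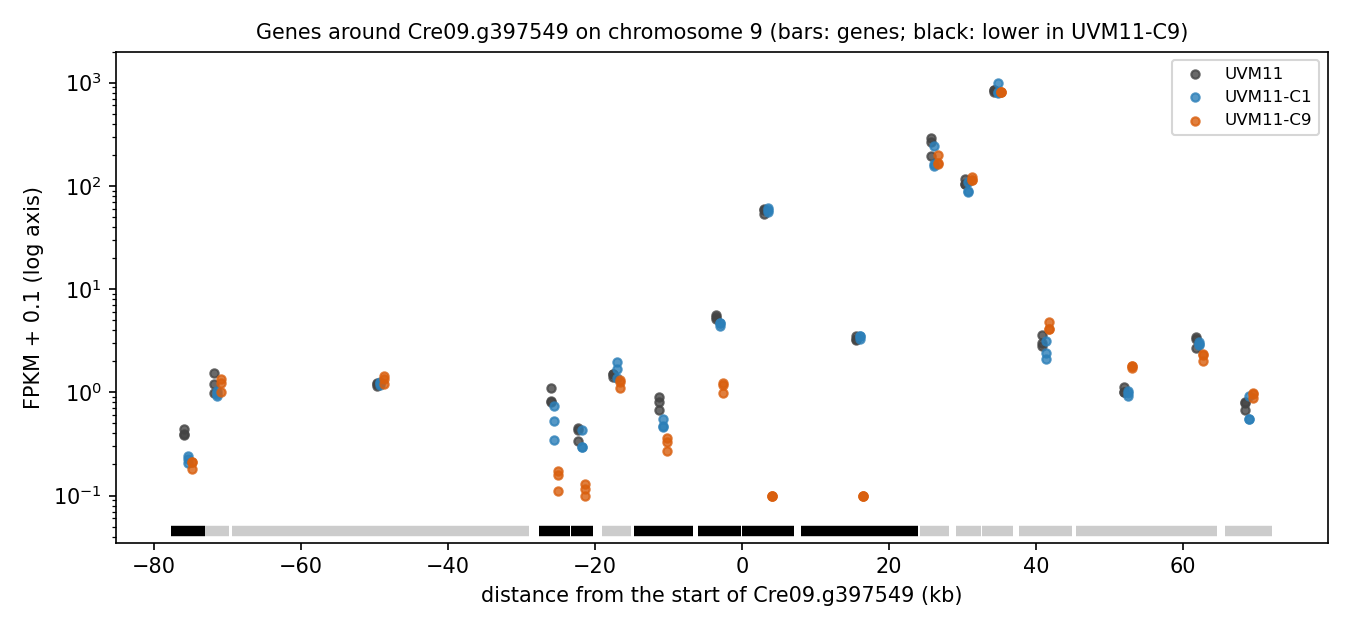
FPKM + 0.1 (log axis) of each culture for 17 neighbouring genes on chromosome 9, plotted at the middle of the gene as distance in kb from the start of Cre09.g397549, with the genes as bars at the bottom (black for genes lower in UVM11-C9 as DEGs). UVM11 (grey) and UVM11-C1 (blue) lie together near 57 FPKM at Cre09.g397549, while the orange points of UVM11-C9 lie at the floor, which stands for 0 FPKM, at this gene and the next.

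The DEGs formed 10 runs of 3 or more neighbouring tested genes that changed in one direction, 31 genes in all, with 7 runs lower and 3 higher. Neighbouring genes can share reads where gene models overlap, and the direction of transcription was not used here. On chromosome 8, Cre08.g365825, Cre08.g365851 and Cre08.g365900 (1691243 to 1712537) were all higher. Cre08.g365851 went from 1.29, 1.64 and 1.63 FPKM in UVM11 to 15.4, 16.6 and 20.6 FPKM in UVM11-C9, a log2 fold change of 3.44 (SE 0.28, adjusted p = 8.79e-09). Cre08.g365825 went from 3.504, 4.08 and 4.16 FPKM to 21.7, 23.2 and 30.03 FPKM, a log2 fold change of 2.63 (SE 0.13, adjusted p = 2.99e-12). In the third gene, Cre08.g365900, the UVM11 cultures were less even, with 7.13, 14.97 and 10.3 FPKM against 31.5, 41.2 and 44.4 FPKM. All 3 were higher in UVM11-C9 than in UVM11-C1 in a direct test, by 2.43, 3.60 and 1.12 on the log2 scale.

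On chromosome 2, Cre02.g142566, Cre02.g142607 and Cre02.g142627 (8830009 to 8860478) formed another higher run. Cre02.g142607 went from 0.0598, 0.0314 and 0.0807 FPKM to 2.78, 2.80 and 2.80 FPKM, a log2 fold change of 4.21 (SE 0.17, adjusted p = 2.3e-13), and Cre02.g142627 from 2.26, 1.57 and 2.03 FPKM to 14.9, 15.8 and 14.9 FPKM, a log2 fold change of 2.91 (SE 0.13, adjusted p = 6.42e-13). The UVM11-C9 cultures differed little among themselves, those of UVM11 more so, and UVM11-C9 was above UVM11-C1 by 4.77 and 3.40 on the log2 scale, both DEGs. Cre02.g142566 changed by 1.32 (SE 0.34, adjusted p = 0.00329) and lost its call with a pseudocount of 1, with batch 2 alone, or without UVM11 replicate 5 or 6 or UVM11-C9 replicate 1. In this gene UVM11-C1 was also a DEG above UVM11, by 1.39, and the clones did not differ as a DEG (-0.07 on the log2 scale). It had 0.396 ± 0.158 FPKM in UVM11-C9 (SD, n = 3) and 0.309 ± 0.0518 FPKM in UVM11 of batch 1 (SD, n = 4). The third higher run, on chromosome 6 (6677839 to 6721730), held Cre06.g294250, which went from 6.91, 5.98 and 8.34 FPKM to 24.0, 25.1 and 20.2 FPKM, Cre06.g294301 at below 0.3 FPKM in every culture of both strains, and Cre06.g294350.

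In some lower runs both clones were low, and in others the clones differed. In the run on chromosome 1 (6010670 to 6024465), Cre01.g042600 and Cre01.g042650 were listed at 0 in every UVM11-C9 culture and had 1.40, 0.628 and 0.549 FPKM and 1.17, 0.605 and 0.444 FPKM in UVM11, and neither was a DEG with a pseudocount of 1. The third gene, Cre01.g042700, changed by -3.18 (SE 0.26, adjusted p = 8.12e-09) on the log2 scale. UVM11-C1 had 0.298 ± 0.125 FPKM of Cre01.g042700 and UVM11-C9 had 0.613 ± 0.0866 FPKM (SD, n = 3), against 6.498 ± 1.75 FPKM in UVM11. In batch 1, UVM11 had 0.602 ± 0.126 FPKM of Cre01.g042700 (SD, n = 4), close to UVM11-C9. Its levels of Cre01.g042600 and Cre01.g042650 there were 0.0626 ± 0.0355 FPKM and 0.0682 ± 0.0257 FPKM, also below those of UVM11 in batch 2. In Cre13.g569400, Cre13.g569450 and Cre13.g569500 on chromosome 13 (1118318 to 1129369), by contrast, UVM11-C9 had 1.94 ± 0.587 FPKM, 0.535 ± 0.0461 FPKM and 10.5 ± 2.48 FPKM (SD, n = 3). UVM11 had 8.48 ± 1.04 FPKM, 2.62 ± 0.574 FPKM and 23.9 ± 3.18 FPKM, and UVM11-C1 stood at 10.7, 2.71 and 29.1 FPKM. In UVM11 of batch 1 the levels were 4.04 ± 0.184 FPKM, 1.34 ± 0.0921 FPKM and 9.37 ± 0.987 FPKM (SD, n = 4), below those of UVM11 in batch 2, and in Cre13.g569500 close to those of UVM11-C9. The direct test placed UVM11-C9 below UVM11-C1, with differences of -2.43, -2.15 and -1.47 on the log2 scale, each a DEG.

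The other 4 lower runs lay on chromosomes 2, 3, 5 and 10. In the run of chromosome 2 (3927042 to 3933845), UVM11-C1 stood between UVM11 and UVM11-C9. Cre02.g096455 had 5.47, 5.19 and 5.26 FPKM in UVM11, 0.717, 0.756 and 0.637 FPKM in UVM11-C9 and 1.97, 1.90 and 1.39 FPKM in UVM11-C1, and Cre02.g096500 had 10.8 ± 1.14 FPKM, 3.51 ± 0.489 FPKM and 5.05 ± 0.204 FPKM, respectively (SD, n = 3). In UVM11 of batch 1 these genes were at 1.97 ± 0.408 FPKM and 4.81 ± 0.584 FPKM (SD, n = 4), close to UVM11-C1. Both UVM11-C9 and UVM11-C1 were lower DEGs in these genes and in the first of the run, Cre02.g096450. In the run of chromosome 3 (1722312 to 1733351), Cre03.g153550 went from 3.23, 2.13 and 2.21 FPKM to 1.16, 0.842 and 0.657 FPKM, while UVM11-C1 had 2.31, 2.26 and 2.72 FPKM. UVM11 of batch 1 had 1.15 ± 0.149 FPKM of Cre03.g153550 (SD, n = 4). None of the 3 genes of this run remained a DEG with a pseudocount of 1, and Cre03.g153500 also lost its call without UVM11-C9 replicate 3. In the run of chromosome 5 (2619644 to 2631951), Cre05.g236300 and Cre05.g236350 stayed below 0.5 FPKM in all cultures of both strains, and Cre05.g236375 went from 1.64, 1.05 and 1.00 FPKM to 0.173, 0.240 and 0.283 FPKM, with 1.32, 1.68 and 1.19 FPKM in UVM11-C1. Here UVM11 of batch 1, with 0.941 ± 0.160 FPKM of Cre05.g236375 (SD, n = 4), was above UVM11-C9 as well. The run of chromosome 10 (1515672 to 1534021) held genes in which the second clone moved differently from one to the next. Cre10.g428950 had 1.39 ± 0.119 FPKM in UVM11, 0.215 ± 0.107 FPKM in UVM11-C9 and 0.215 ± 0.04499 FPKM in UVM11-C1 (SD, n = 3). Cre10.g429000 had 17.5, 22.2 and 17.6 FPKM in UVM11, 8.51, 7.22 and 5.15 FPKM in UVM11-C9 and 44.2, 43.0 and 31.2 FPKM in UVM11-C1, so that UVM11 lay between the clones. In batch 1, UVM11 had 0.113 ± 0.0445 FPKM of Cre10.g428950 and 7.16 ± 0.973 FPKM of Cre10.g429000 (SD, n = 4). Both levels were below those of UVM11 in batch 2, and that of Cre10.g429000 was close to UVM11-C9.

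**Figure D4:**
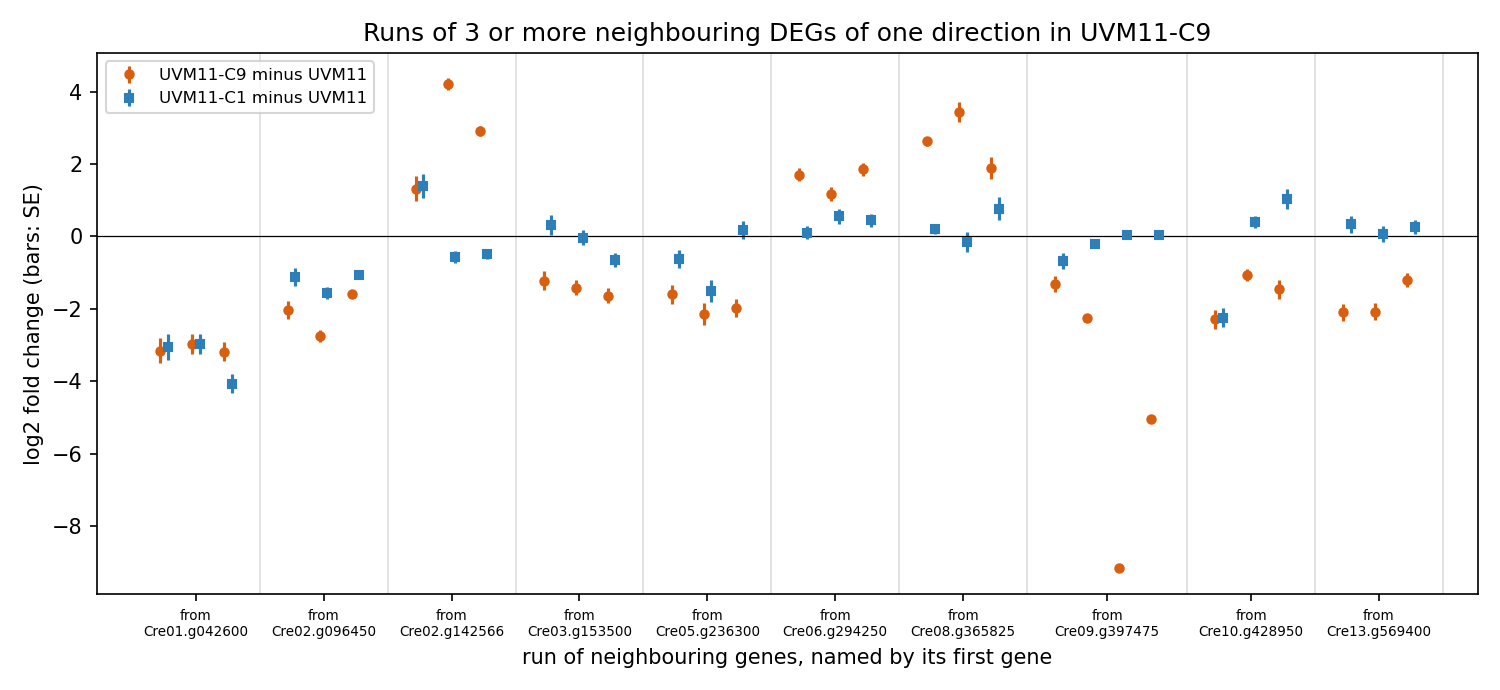
Log2 fold changes with SE of the 31 genes in 10 runs of neighbouring DEGs, for UVM11-C9 minus UVM11 (orange circles) and UVM11-C1 minus UVM11 (blue squares), on log2(FPKM + 0.1). Both clones lie together in the run from Cre01.g042600 and apart in most genes of the runs from Cre08.g365825, Cre09.g397475 and Cre13.g569400, and both use the same UVM11 cultures. Values of genes listed at 0 depend on the pseudocount.

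Beside the pair on chromosome 9, the other large falls differed in how far the second clone went along. Cre03.g195950 (chromosome 3, 6570079 to 6574672) went from 7.72, 7.48 and 6.66 FPKM to 0.195, 0.156 and 0.230 FPKM, a log2 fold change of -4.66 (SE 0.13, adjusted p = 5.23e-16), while UVM11-C1 kept 6.40, 5.69 and 6.55 FPKM. Cre03.g194600 (chromosome 3, 6432425 to 6436227) went from 7.48, 8.28 and 7.08 FPKM to 0.769, 0.453 and 0.351 FPKM, a log2 fold change of -3.68 (SE 0.17, adjusted p = 1.66e-12), with 5.26, 6.10 and 5.501 FPKM in UVM11-C1. In both, UVM11-C9 was below UVM11-C1 as a DEG, with differences of -4.43 and -3.25 on the log2 scale. In contrast, Cre16.g674151 (chromosome 16, 6342612 to 6344005) was nearly lost in both clones, with 8.76, 9.39 and 9.997 FPKM in UVM11, 0, 0.0357 and 0.0361 FPKM in UVM11-C9 and 0.120, 0.102 and 0.343 FPKM in UVM11-C1. Its log2 fold change in UVM11-C9 was -6.27 (SE 0.23, adjusted p = 4.04e-14). Elow47, which has the SRTA wild-type allele, had at most 0.0383 FPKM, and UVM11 of batch 1 had 9.17 ± 0.518 FPKM (SD, n = 4). UVM4, a further srta mutant isolated from Elow47, was also near 0, with at most 0.0916 FPKM. Cre11.g474650 was listed at 0 in every culture of UVM11-C9, UVM11-C1 and Elow47 and had 1.28, 1.00 and 1.57 FPKM in UVM11. In Cre12.g554100 the cultures held 16.6, 10.1 and 18.5 FPKM in UVM11, 1.04, 1.30 and 1.03 FPKM in UVM11-C9 and 0.988, 1.16 and 1.02 FPKM in UVM11-C1. Cre12.g516700 lay in between: it was listed at 0 in UVM11-C9, against 4.08, 1.43 and 1.96 FPKM in UVM11, and UVM11-C1, with 0.524, 0.560 and 0.225 FPKM, was both a DEG below UVM11 and a DEG above UVM11-C9. The same calls were made for Cre12.g541550, Cre13.g606300 and Cre16.g674151. Cre08.g371879 and Cre06.g251550, with 1.60 ± 0.162 FPKM and 1.35 ± 0.0794 FPKM in UVM11 (SD, n = 3), were at or below 0.0504 FPKM in every UVM11-C9 culture. UVM11 of batch 1 had 0.357 ± 0.136 FPKM and 0.0790 ± 0.0731 FPKM of them (SD, n = 4). Its levels of Cre12.g554100 and Cre12.g516700 were 6.84 ± 1.27 FPKM and 0.0811 ± 0.0923 FPKM, also below those of UVM11 in batch 2.

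**Figure D5:**
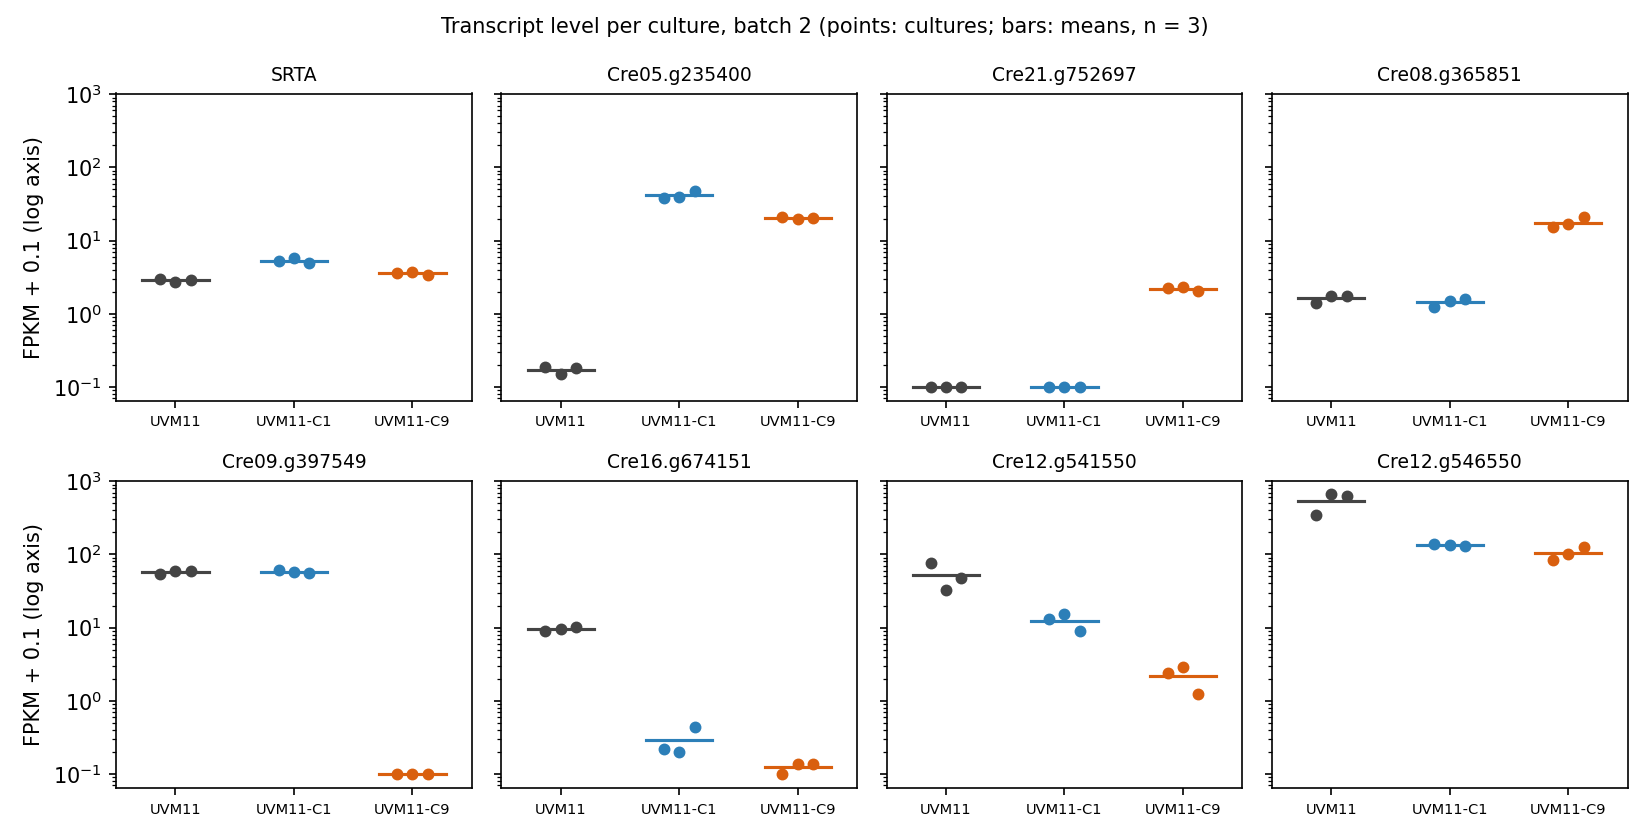
FPKM + 0.1 (log axis) in each culture of UVM11, UVM11-C1 and UVM11-C9, with bars at the means (n = 3), for SRTA and 7 genes. Cre05.g235400 and Cre16.g674151 moved in both clones, while Cre21.g752697, Cre08.g365851 and Cre09.g397549 stand apart in UVM11-C9 only, each with a DEG between the clones.

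Few abundant genes were among the DEGs: 3 higher and 5 lower DEGs had a mean above 100 FPKM in one of the strains, a level that 4.90% of tested genes reached. The 6 most abundant of each direction were singled out once their values were known, and none has an annotation in the sources used. Cre02.g114600 (chromosome 2, 6290309 to 6292284) was the most abundant higher DEG, with 689, 671 and 784 FPKM in UVM11 and 1413, 1503 and 1494 FPKM in UVM11-C9, a log2 fold change of 1.04 (SE 0.08, adjusted p = 3.27e-09). Lying so near the threshold of 1, it was no DEG with quantile normalization or without UVM11 replicate 6. Cre07.g335200 went from 80.3, 98.2 and 90.0 FPKM to 246, 231 and 216 FPKM, a log2 fold change of 1.37 (SE 0.09, adjusted p = 2.89e-10). Cre05.g242000, Cre02.g080600 and Cre08.g383850 changed by 1.05, 1.90 and 1.85 on the log2 scale, the first of them only with UVM11 replicate 5 and UVM11-C9 replicate 3 in the fit. Cre12.g512300 (chromosome 12, 1768951 to 1777470) had 9.58, 11.3 and 24.2 FPKM in UVM11 and 57.9, 63.9 and 69.8 FPKM in UVM11-C9, a log2 fold change of 2.197 (SE 0.24, adjusted p = 4.49e-07). Its level in UVM11 of batch 1 was 56.4 ± 3.01 FPKM and in Elow47 67.7 ± 7.995 FPKM (SD, n = 4), so the UVM11 cultures of batch 2 and UVM11-C1, with 15.1, 10.9 and 21.8 FPKM, were the low ones.

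Among abundant lower DEGs, Cre12.g546550 (chromosome 12, 8671306 to 8675189) had 348, 658 and 626 FPKM in UVM11 and 83.6, 102 and 125 FPKM in UVM11-C9, a log2 fold change of -2.36 (SE 0.18, adjusted p = 3.35e-09). Cre09.g393150 (chromosome 9, 2173636 to 2185319) had 166, 204 and 232 FPKM and 68.6, 67.3 and 68.9 FPKM, a log2 fold change of -1.54 (SE 0.11, adjusted p = 7.56e-10). UVM11-C1 was close to UVM11-C9 in both, with 135 ± 2.75 FPKM and 88.5 ± 6.02 FPKM (SD, n = 3), and the clones did not differ as a DEG (-0.40 and -0.37 on the log2 scale). Cre02.g097800 (chromosome 2, 4110306 to 4117464) was uneven in both strains, with 973, 224 and 311 FPKM in UVM11 and 181, 97.2 and 21.4 FPKM in UVM11-C9. It had 3.13 ± 0.268 FPKM in UVM11 of batch 1 (SD, n = 4), so its level differed far more between the batches than between the strains, and it was no DEG when only the 6 libraries compared or only the 9 of batch 2 were fitted. Cre05.g238311 and Cre06.g298750 changed by -1.79 (SE 0.26, adjusted p = 1.19e-05) and -1.89 (SE 0.32, adjusted p = 8.48e-05) on the log2 scale, and Cre12.g550702 by -1.07 (SE 0.11, adjusted p = 1.44e-07). Cre06.g298750 fell from 89.4 ± 13.3 FPKM to 24.9 ± 9.26 FPKM in UVM11-C9 (SD, n = 3), while UVM11 of batch 1 had 24.0 ± 8.26 FPKM (SD, n = 4), as low as UVM11-C9. Cre05.g238311 likewise had 423 ± 62.0 FPKM in UVM11, 122 ± 13.5 FPKM in UVM11-C9 and 163 ± 29.4 FPKM in UVM11 of batch 1.

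Unevenness of this kind had a direction. UVM11 replicate 5 was the highest of the 3 UVM11 cultures in 179 of the 337 lower DEGs, or 53.1%, compared with 38.2% of all tested genes, and UVM11-C9 replicate 3 was the lowest of its strain in 45.4%, compared with 35.0%. Without UVM11 replicate 5 there were 295 lower DEGs, of which 280 were among the 337. Levels in UVM11 also differed between batches: 806 genes (5.23%) were DEGs between UVM11 of batch 2 and of batch 1, with 640 higher (4.15%) and 166 lower (1.08%) in batch 2, and the growth of the cultures, the sequencing run and the time cannot be told apart there. Over the 337 lower DEGs the median log2 difference, UVM11 of batch 2 minus batch 1, was 0.80, compared with -0.004 over all tested genes. These DEGs were chosen on the same UVM11 cultures of batch 2, so this shift is no independent result. A fall from UVM11 of batch 2 need thus not be a fall from UVM11 of batch 1, as Cre06.g298750 and Cre13.g569500 show.

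Function could be read only from the annotation in the study's supplements, which covered 4 of the higher and 8 of the lower DEGs. A list of 18 genes that the study had selected as raised in srta mutants and lowered in both complemented strains was chosen on these same libraries, so its direction is fixed and is no independent evidence. All 18 were lower DEGs here, with log2 fold changes from -5.19 to -1.06 and a median of -2.79, in which the 3 members listed at 0 in UVM11-C9 (Cre11.g474650, Cre16.g667550 and Cre17.g742800) enter with values that depend on the pseudocount. With a pseudocount of 1, 11 were DEGs. Cre13.g606300, annotated as a 2'-5' oligoadenylate synthase, a kind of enzyme that in mammals makes a second messenger of antiviral defence, had 17.9, 6.52 and 8.88 FPKM in UVM11 and 0.298, 0.463 and 0.211 FPKM in UVM11-C9. It had 0.836 ± 0.229 FPKM in UVM11 of batch 1 (SD, n = 4) and 0.847 ± 0.229 FPKM in UVM11-C1 (SD, n = 3). Cre17.g729101, a pherophorin of the family of extracellular matrix glycoproteins of volvocine algae, had 1.69, 2.28 and 2.35 FPKM and 0.180, 0.236 and 0.300 FPKM. Cre14.g630000, with a SnoaL-like domain, went from 6.38, 3.42 and 6.27 FPKM to 1.27, 1.36 and 0.956 FPKM, and Cre05.g245500, a flagellar associated protein with ankyrin repeats, from 3.04, 1.98 and 2.02 FPKM to 1.03, 0.900 and 0.919 FPKM. In Cre17.g729101, Cre14.g630000 and Cre05.g245500, UVM11 of batch 1 had 0.368 ± 0.0642 FPKM, 1.65 ± 0.101 FPKM and 0.843 ± 0.0224 FPKM (SD, n = 4). These levels were below those of UVM11 in batch 2. The serine/threonine protein kinase gene Cre01.g041752 stayed below 0.3 FPKM in every culture of UVM11 (batch 2) and UVM11-C9, and its call was lost in 6 of the alternatives. The highest level of the list was that of the unannotated gene Cre12.g541550, with 76.0, 32.6 and 46.7 FPKM in UVM11, 2.27, 2.83 and 1.13 FPKM in UVM11-C9 and 13.2, 15.1 and 8.88 FPKM in UVM11-C1. UVM11-C9 minus UVM11-C1 was -2.58 (SE 0.28, adjusted p = 4.88e-07) on the log2 scale, a DEG. Other members of this list were near 0 in both clones. Cre11.g467713 had 7.63, 8.09 and 8.96 FPKM in UVM11 and 0.0824, 0.152 and 0.154 FPKM in UVM11-C9, and Cre07.g326626 had 2.53, 2.73 and 3.004 FPKM and 0, 0.0398 and 0.0402 FPKM. UVM11 of batch 1 had 0.282 ± 0.194 FPKM of the former and 12.9 ± 0.875 FPKM of the latter (SD, n = 4). Cre10.g450800, Cre02.g100700 and Cre03.g201417 were below 0.4 FPKM in each UVM11-C9 culture, and Cre17.g742800 and Cre16.g667550 were listed at 0 there. Cre09.g386742 showed how far the level in UVM11 moved between batches, with 0.471, 0.597 and 0.647 FPKM in batch 2 and 17.8 ± 0.128 FPKM in batch 1 (SD, n = 4), against 0, 0.0405 and 0.0205 FPKM in UVM11-C9. The last members, Cre02.g095039 and Cre14.g613100, changed by -1.66 and -2.07 on the log2 scale (SE 0.14 and 0.17).

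The second source of annotation was the list of genes in the interval of chromosome 10 (3740943 to 6309150) to which SRTA had been mapped, which is where the native srta-1 allele lies. Of 398 entries listed for it, 397 were matched to a gene of the files, 84 of them by position, which gave 396 different genes. Of these, 352 were tested, and 7 were higher and 13 lower DEGs in UVM11-C9 (1.99% and 3.69%, beside 1.40% and 2.18% of all tested genes). Their median log2 fold change was -0.04. Of the 4 annotated higher DEGs, 3 are listed as chitinase-like proteins or glycosyl hydrolases of family 18, enzymes that cut chitin and related polymers. These were noticed after their values were seen and are the only 3 tested genes so listed in the interval. Cre10.g451500 (chromosome 10, 4405152 to 4408403) went from 0.957, 1.04 and 1.33 FPKM to 7.18, 8.79 and 7.21 FPKM, a log2 fold change of 2.70 (SE 0.23, adjusted p = 1.6e-08). Its neighbour Cre10.g451600 (chromosome 10, 4408462 to 4470573) went from 4.65, 4.23 and 4.23 FPKM to 12.7, 14.5 and 11.9 FPKM, a log2 fold change of 1.55 (SE 0.11, adjusted p = 2.29e-09). Cre10.g458350 (chromosome 10, 5373737 to 5433028) went from 4.10, 4.16 and 4.52 FPKM to 10.2, 10.2 and 10.5 FPKM, a log2 fold change of 1.25 (SE 0.13, adjusted p = 1.68e-07). UVM11-C1 had 1.79 ± 0.436 FPKM, 5.47 ± 0.152 FPKM and 4.53 ± 1.16 FPKM of these genes (SD, n = 3), and UVM11-C9 was above it by 2.07, 1.23 and 1.19 on the log2 scale, each a DEG. The annotated higher DEG left is Cre10.g461500, with a VTC domain, which rose by 1.61 from 0.272 ± 0.0325 FPKM (SD, n = 3).

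Of the annotated lower DEGs in the interval, Cre10.g463500 (chromosome 10, 6084346 to 6091917) encodes a calcium/calmodulin-dependent protein kinase with EF-hands, the motif that binds calcium. It had 23.9, 6.27 and 9.72 FPKM in UVM11, 2.13, 1.20 and 0.584 FPKM in UVM11-C9 and 9.76, 9.99 and 6.67 FPKM in UVM11-C1, and its log2 fold change in UVM11-C9 was -3.19 (SE 0.38, adjusted p = 1.13e-06). UVM11-C9 minus UVM11-C1 was -2.80 (SE 0.38, adjusted p = 5.52e-06), a DEG. In batch 1 the gene was near 0.169 FPKM in UVM11, so the batch 2 cultures of UVM11 stood above it. Cre10.g449020, annotated as an aromatic amino acid aminotransferase, and Cre10.g455950, an NADPH-dependent FMN reductase, changed by -1.08 (SE 0.17, adjusted p = 4.59e-05) and -1.03 (SE 0.10, adjusted p = 1.39e-07) on the log2 scale. Both lost their call without a single UVM11 library, replicate 7 in the former and replicate 5 in the latter.

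In a direct comparison over all genes, UVM11-C9 differed from UVM11-C1 in 566 of 15425 genes (3.67%), with 276 higher (1.79%) and 290 lower (1.88%) in UVM11-C9. Between the clones, which carry the same plasmid and stem from the same mutant, a similar number of genes were thus DEGs as between UVM11-C9 and UVM11, for which the number was 553. UVM11-C1 differed from UVM11 in 191 genes (1.24%), with 51 higher (0.331%) and 140 lower (0.908%), which rests on the same UVM11 cultures. Whether a change in UVM11-C9 came with the SRTA allele or with the clone was not tested by these comparisons in any gene.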

How the data were processed

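Per the labels and methods, the authors aligned reads with RNA-STAR (2.4.0j) to genome version 5 and deposited FPKM values from Cuffdiff (2.2.1) for 17741 genes. Genes were tested on log2(FPKM + 0.1) with limma (3.58.1, R 4.3.3), with a variance trend, in 1 model of 21 libraries and 6 groups (15 residual degrees of freedom). The pseudocount compresses fold changes of low genes. 2316 genes at or below a mean of 0.1 FPKM were left out. The model was run on simulated normal log2 values without a floor at 0, which cannot check its p-values for genes listed at 0. Depth in reads is unknown. P-values are two-sided. UVM11-C1 columns carried no usable replicate number and are named a to c in no order. Members and gene lists were chosen with earlier results of these data known. The rule for named genes took the histone deacetylases, the 15 non-overlapping DEGs of largest change per direction, up to 10 annotated DEGs per direction, DEGs listed at 0 on 1 side and above 1 FPKM on the other, DEGs of the gene lists, and runs of 3 or more neighbouring DEGs. The 29 pathway lists defined by symbol matched no gene, because the sources used here pair few identifiers with symbols. Alternatives are given in the closing section. Tables used Python (3.11.15), numpy (2.4.6), pandas (2.3.3) and scipy (1.17.1).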

Additional observations from a re-analysis of the deposited data

Results flagged for a closer look

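Of the 102 named genes, 48 had levels in UVM11-C9 that differed from UVM11-C1 as a DEG in the direct test of limma, 24 lower and 24 higher in UVM11-C9. Over all tested genes the share was 3.67%. Most of the named genes were picked for a large change in the same UVM11-C9 cultures, so their number cannot be read against that share. Each of these genes is flagged because its level differed between UVM11-C9 and UVM11-C1 in that test. What sets the clones apart was not tested.

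UVM11-C9 was listed at 0 in Cre09.g397549 (58.2 FPKM), Cre09.g397586 (3.31 FPKM) and Cre12.g516700 (0.436 FPKM), with the mean of UVM11-C1 in parentheses, and UVM11-C1 was listed at 0 in Cre21.g752697, which had a mean of 2.10 FPKM in UVM11-C9. In Cre03.g195950, Cre03.g194600, Cre02.g097800, Cre10.g463500, Cre12.g541550, Cre10.g429000 and Cre13.g569400, UVM11-C9 was below UVM11-C1, with log2 differences of -4.43, -3.25, -3.22, -2.80, -2.58, -2.50 and -2.43, in this order. The log2 differences were -2.17, -2.15, -2.03, -1.55, -1.54, -1.47 and -1.47 in Cre05.g236375, Cre13.g569450, Cre09.g397512, Cre03.g153500, Cre06.g298750, Cre10.g428966 and Cre13.g569500, respectively. Smaller log2 differences of -1.39, -1.39, -1.19, -1.18, -1.14, -1.09 and -1.01 belonged to Cre05.g238311, Cre03.g153550, Cre02.g096455, Cre13.g606300, Cre16.g674151, Cre14.g632300 and Cre05.g235400, in this order. 

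In Cre02.g142607, Cre10.g419300, Cre06.g260900, Cre08.g365851, Cre02.g142627, Cre02.g141986, Cre02.g143367 and Cre14.g615776, UVM11-C9 was above UVM11-C1 by log2 differences of 4.77, 4.28, 3.65, 3.60, 3.40, 3.27, 2.88 and 2.77, in this order. The log2 differences were 2.43, 2.07, 2.05, 1.77, 1.64, 1.60, 1.45 and 1.41 in Cre08.g365825, Cre10.g451500, Cre12.g512300, Cre08.g383850, Cre10.g461500, Cre06.g294250, Cre05.g235950 and Cre06.g294350, respectively. Smaller log2 differences of 1.38, 1.34, 1.23, 1.19, 1.12, 1.12 and 1.09 belonged to Cre02.g080600, Cre14.g615350, Cre10.g451600, Cre10.g458350, Cre08.g365900, Cre07.g335200 and Cre02.g100700, in this order. 

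Of these genes, HDA13 (Cre14.g632300) was no DEG against UVM11 in either clone, and Cre02.g100700 was a lower DEG in both.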

How the results depend on the processing

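Counts in UVM11-C9 against UVM11 (216 higher, 337 lower) fell to 61 and 131 with a pseudocount of 1, to 82 and 209 for genes above a mean of 1 FPKM, and to 30 and 70 with limma's treat method against the threshold of 1. For DEGs higher in UVM11-C9 than UVM11-C1 (276) and DEGs lower in UVM11-C9 than UVM11-C1 (290), the pseudocount of 1 gave 72 and 129 and treat gave 42 and 39, while the filter at 1 FPKM gave 99 higher DEGs and 207 lower. With a pseudocount of 0.01, no filter, quantile normalization, median ratio scaling, an adjusted p below 0.05, or fits of fewer libraries, each count stayed within 1.5 times its main value. Leaving out each library in turn gave 201 to 215 higher and 295 to 354 lower DEGs against UVM11. Against UVM11-C1 it gave 252 to 278 and 263 to 334, chosen after seeing the data, as was the fit of batch 2 alone (260 and 280). The fit of only the 6 libraries compared gave 201 and 322, and holds no UVM11-C1, so it gives no value for that comparison. No DEG changed direction under any alternative. The log2 fold change of SRTA ranged from 0.24 to 0.34, and it was never a DEG. That of HDA1 (Cre03.g158200), 0.07, ranged from -0.060 without UVM11-C9 replicate 1, its highest culture, to 0.15 without UVM11-C9 replicate 2. Of the 102 named genes, SRTA aside, 25 lost their call with a pseudocount of 1 and 35 with treat. The cause of these moves was not tested, except that fewer genes enter the filter at 1 FPKM (13509). Of the list of 18 genes, 7 were DEGs after that filter. No paired analysis was possible because UVM11 replicates 5 to 7 and UVM11-C9 replicates 1 to 3 share no numbers and the UVM11-C1 columns carry none of their own. Precision is limited to 3 cultures a strain and, below about 1 FPKM, by the pseudocount.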
